A study of Mus musculus with 90 samples.

Results

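The comparison described here asked how gene expression in the cortex of Q175 mice changed with once-daily dosing at 1.0 mg/kg with PF-02545920, which inhibits the enzyme PDE10A. It rests on 17 of the 90 RNA-seq libraries of the series, picked by their titles: 10 cortex libraries from Q175 mice at 1.0 mg/kg and 7 cortex libraries from Q175 mice on vehicle. Each library came from a separate mouse. The dosed group held 5 females and 5 males, and the vehicle group 5 females and 2 males. All were C57BL6/J mice homozygous for Q175, a knock-in that places an expanded CAG repeat in Htt and serves as a model of Huntington's disease. Both groups were given drug or vehicle by mouth once daily, starting at 5 weeks of age, and the cortex of the right hemisphere was taken at 9 months. The series also holds cortex from Q175 mice at 0.32 mg/kg (10) and 3.2 mg/kg (9) and from wild-type (WT) mice on vehicle (9), as well as striatum from all 45 mice. Mice are named here by group, sex and number, so that dosed F1 is the first female at 1.0 mg/kg.

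PDE10A breaks down the second messengers cyclic AMP and cyclic GMP. It is concentrated in the medium spiny neurons of the striatum, where its inhibition raises both messengers and, through protein kinase A and the transcription factor CREB, the transcription of activity-dependent genes. Cortex holds little of the enzyme in its own neurons, which are mainly excitatory projection neurons and GABA interneurons, and it is linked to the striatum through corticostriatal and basal ganglia circuits.

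The tissue label held against marker genes. Summed over 22 genes of cortical excitatory neurons, the dosed cortices reached 4691 to 5374 CPM (counts scaled to a common library size) and the vehicle cortices 5167 to 5450 CPM, above the 2475 to 3054 CPM of dosed striata and 2385 to 2918 CPM of vehicle striata. Genes of medium spiny neurons summed to 1174 to 1566 CPM in dosed and 1231 to 1449 CPM in vehicle cortices, against 5590 to 7054 CPM in dosed and 5969 to 7082 CPM in vehicle striata. In bulk tissue such as this, fewer cells of a type and less RNA per cell cannot be told apart.

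Both L3 libraries of the dosed group stood apart from the rest before any comparison was made. These are dosed F1 and dosed F4, whose library names carry L3. That token is read here as a sequencing lane, which the labels do not state. No vehicle library carries it. The length slope of a library is how far its genes deviate from the cortex mean, in log2 units, per doubling of transcript length, and it was -0.160 in dosed F1 and -0.137 in dosed F4. The other 43 cortex libraries lay between -0.0395 and 0.0334, and the 4 other cortex libraries that carry L3, which are 2 WT libraries and 2 at 0.32 mg/kg, lay between 0.00283 and 0.0298. Long transcripts thus had relatively fewer counts in this pair than in any other cortex library. Mitochondrially encoded genes took 10.7% of the counts in dosed F1 and 10.8% in dosed F4, against 6.92% to 9.41% in the other 43. The striata of the same mice had length slopes of -0.00929 and 0.00105. The main results are therefore given with all libraries and without the L3 pair.

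**Figure D1:**
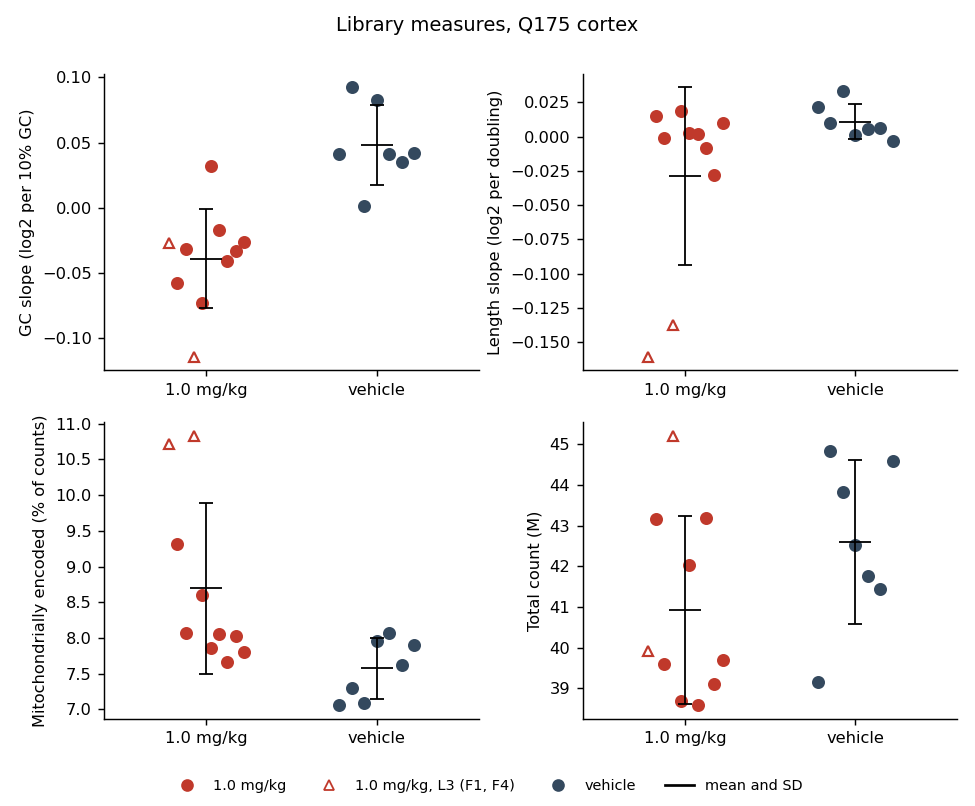
Each point is 1 cortex library, with the 10 libraries at 1.0 mg/kg on the left and the 7 vehicle libraries on the right of each panel; the panels show the GC slope (log2 units per 10 percentage points of GC), the length slope (log2 units per doubling of length), the mitochondrially encoded share (%) and the total count (M). Open triangles are the dosed L3 libraries, which are lowest in length slope (-0.160 and -0.137) and highest in mitochondrial share (10.7% and 10.8%).

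Base composition also separated the groups, and this did not depend on the L3 pair. The GC slope, the deviation of a library's genes per 10 percentage points of transcript GC content, averaged -0.0390 ± 0.0380 log2 units in dosed cortices and 0.0481 ± 0.0307 in vehicle cortices (SD, n = 10 and 7; difference -0.0871, exact two-sided permutation test, p = 0.000823 adjusted over 4 library measures). Without the L3 pair the difference was -0.0791 (exact permutation test, adjusted p = 0.00249). The mitochondrial share was 8.69 ± 1.19% in dosed and 7.57 ± 0.424% in vehicle cortices (difference 1.12 percentage points, exact permutation test, adjusted p = 0.0181). Without the L3 pair the difference was 0.601 percentage points (exact permutation test, adjusted p = 0.0547). The length slope differed by -0.0395 with all libraries (adjusted p = 0.0946, exact permutation test) and by -0.00950 without the pair (adjusted p = 0.214, exact permutation test). Total counts were 38.6 M to 45.2 M in dosed and 39.1 M to 44.8 M in vehicle cortices.

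By this token the dosed libraries carried L1 (1), L3 (2), L5 (2), L6 (1), L7 (2) and L8 (2), and the vehicle libraries L5 (1), L6 (2), L7 (3) and L8 (1). In the striata of the same groups the order of the GC slopes was the opposite, with a median of 0.0539 in dosed and -0.0510 in vehicle libraries. What set the GC slopes was not tested. The main results are given with and without offsets that remove each library's trend with GC content.

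With all libraries 3649 of 17603 genes (20.7%) were called at a Benjamini-Hochberg adjusted p under 0.05 by edgeR's quasi-likelihood test, 1924 higher (10.9%) and 1725 lower (9.8%) at 1.0 mg/kg than on vehicle. Without the L3 pair 2138 of 17575 genes (12.2%) were called, 1076 higher (6.12%) and 1062 lower (6.04%). After GC correction 2111 genes (12%) were called, 1110 higher (6.31%) and 1001 lower (5.69%). With both changes together 619 genes (3.52%) were called, 327 higher (1.86%) and 292 lower (1.66%). Of the 3649 genes called with all libraries, 450 (12.3%) were among these 619, of which they made up 72.7%. Adding a correction for transcript length to that for GC left 788 genes (4.48%) with all libraries and 306 (1.74%) without the L3 pair. The median log2 fold change over all genes was 0.00 in each of these fits.

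**Figure D2:**
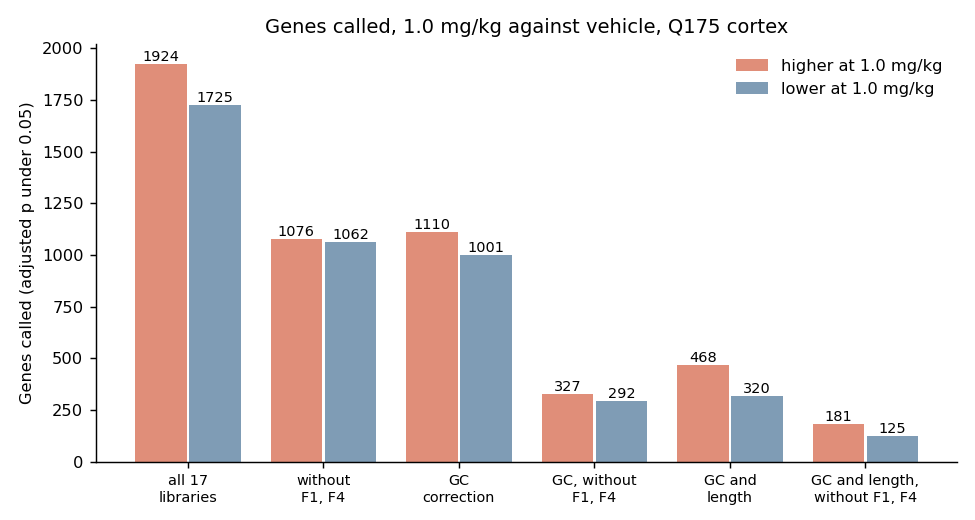
Bars give the number of genes called higher and lower in 1.0 mg/kg than in vehicle cortex (edgeR, adjusted p under 0.05) under each of 6 fits. The count is 3649 with all libraries, 619 after GC correction without the L3 pair and 306 when length is corrected as well.

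The genes called with all libraries were sorted by GC content. Those higher at 1.0 mg/kg had a median GC content of 44.0% and those lower 55.3%, against 49.8% over all genes tested. Without the L3 pair the medians were 43.1% and 56.5%. Among 5 equal groups of genes ordered by GC content, the median log2 fold change was 0.09 in the poorest group and -0.07 in the richest. After GC correction the medians of GC were 51.0% for higher and 49.9% for lower genes. Median transcript length was 2908.5 bases for higher and 4830.0 bases for lower genes with all libraries, and the gap was wider after GC correction, at 1877 and 6081 bases. Under both changes it was 2070.0 bases for higher and 5482 bases for lower genes.

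**Figure D3:**
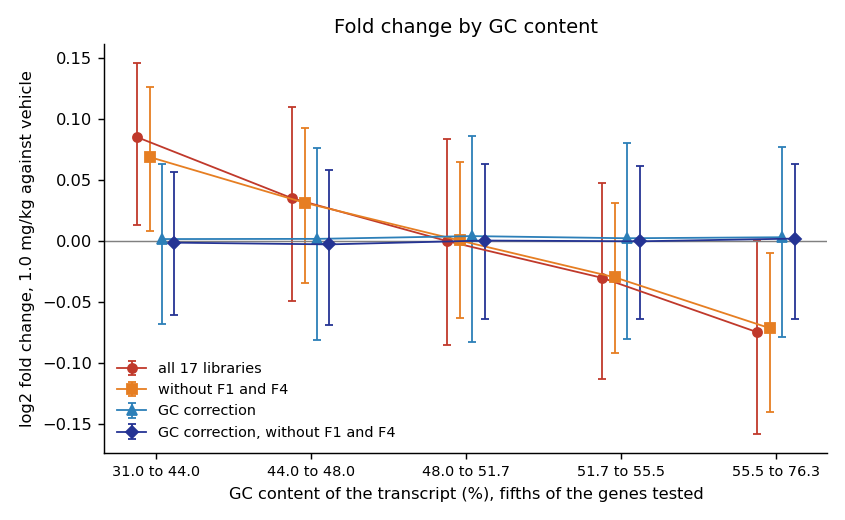
Median (points) and quartiles (bars) of the log2 fold change, 1.0 mg/kg over vehicle, are plotted for 5 equal groups of genes ordered by GC content under 4 fits. With all libraries the medians run between 0.09 in the group poorest in GC and -0.07 in the richest; they lie near 0 after GC correction.

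A core of 330 genes was called in all 4 fits, 163 higher and 167 lower, and 128 of them (68 higher, 60 lower) were also called after GC and length correction without the L3 pair. Over all genes tested, the log2 CPM of the groups did not overlap for 315 (1.79%), and 98 of the 330 were among these. The genes described in what follows are set against these fits.

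Htt, the gene that carries the knock-in, did not pass the test in any of the 4 fits. It lies at chr5:34761740-34912534 on the plus strand (GRCm38). It ran to 72.7 CPM at the lowest, 127 at the median and 146 at the highest in dosed cortices, against 122, 128 and 135 CPM in vehicle cortices. The low values were those of the L3 pair, 72.7 and 79.2 CPM, and the other 8 dosed libraries lay at 123 to 146 CPM. Its log2 fold change was -0.12 ± 0.0770 (SE; adjusted p = 0.273) with all libraries and 0.02 ± 0.0415 (adjusted p = 0.848) without the pair. WT cortices held 215 to 244 CPM.

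Pde10a, the drug's target (chr17:8525372-8986648, plus strand), was present in cortex at 65.1, 80.5 and 121 CPM (lowest, median, highest) in dosed mice and at 75.4, 92.1 and 114 CPM in vehicle mice. The groups overlapped almost fully, and the log2 fold change was -0.11 ± 0.101 (adjusted p = 0.461) with all libraries and -0.06 ± 0.104 (adjusted p = 0.775) under both corrections.

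Among the other genes of cyclic nucleotide signalling, 1 rose and 5 fell of 33 tested with all libraries, against 20.7% called over all genes. Under GC correction without the L3 pair 1 rose and none fell, against 3.52%. The medians of the list were -0.05 and -0.02. The gene that rose in every fit was Gucy1a2, which encodes an alpha subunit of soluble guanylate cyclase, the enzyme that makes cyclic GMP in response to nitric oxide. Its values were 2.93, 6.13 and 11.6 CPM (lowest, median, highest) in dosed cortices, against 3.51, 3.76 and 3.89 CPM in vehicle cortices. The vehicle mice lay within a narrow band, and 9 of the 10 dosed mice lay above it; the exception was dosed F1 of the L3 pair. The log2 fold change was 0.84 ± 0.199 (adjusted p = 0.00278) with all libraries, 1.01 ± 0.185 (adjusted p = 0.000676) without the pair, and 0.93 ± 0.185 (adjusted p = 0.00466) when GC was corrected as well. In the striatum of the same groups it was 0.24 (adjusted p = 0.203), and the difference between tissues did not pass the test (0.50, adjusted p = 0.106).

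Because Gucy1a2 and the peptide gene Vip, a known target of CREB, rose in all 4 fits and belong to cyclic nucleotide biology, their promoters are shown. They run over 250 bases before to 50 bases after the RefSeq start on GRCm38.p6, plus strand, at chr10:5638968-5639267 for Vip and chr9:3532099-3532398 for Gucy1a2, whose RefSeq start lies upstream of the GENCODE start. Capitals mark the short form of the cyclic AMP response element, TGACG on either strand.
Vip: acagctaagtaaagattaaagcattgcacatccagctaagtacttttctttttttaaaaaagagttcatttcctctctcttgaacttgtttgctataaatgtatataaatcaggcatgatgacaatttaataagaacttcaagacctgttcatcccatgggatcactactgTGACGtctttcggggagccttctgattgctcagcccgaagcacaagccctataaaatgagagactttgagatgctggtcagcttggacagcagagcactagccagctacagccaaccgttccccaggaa
Gucy1a2: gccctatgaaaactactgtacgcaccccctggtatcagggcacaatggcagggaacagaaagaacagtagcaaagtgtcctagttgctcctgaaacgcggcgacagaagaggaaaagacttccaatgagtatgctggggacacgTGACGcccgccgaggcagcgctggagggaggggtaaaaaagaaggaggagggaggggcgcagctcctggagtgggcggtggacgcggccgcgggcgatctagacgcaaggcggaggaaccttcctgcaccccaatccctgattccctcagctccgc

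Each of these promoters held 1 short match and no match to the full palindrome TGACGTCA, which contains the short form on both strands. The window of Jun, a gene described below that was lower at 1.0 mg/kg, was searched too and held 0 matches to either form. Only exact matches were counted, so near forms such as TGACATCA, which the Jun window holds, were left out. Of 32851 RefSeq promoter windows of this length, 6837 (20.8%) held the short form and 588 (1.79%) the palindrome. Of the 34 genes on the list of activity and CREB targets, 22 had at least 1 window. Counted by window as above, 20 of their 34 windows held the short form and 4 the palindrome. Counted by gene, the short form was found in 17 of the 22 and the palindrome in 4. A match describes the letters of the window only.

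The adenylate cyclases Adcy3 and Adcy5, which make cyclic AMP, were among the genes of this list that fell with all libraries. Adcy3 held 51.3, 60.4 and 63.3 CPM (lowest, median, highest) in dosed cortices, against 64.5, 68.1 and 71.4 CPM in vehicle cortices, with no overlap. Its log2 fold change was -0.20 ± 0.0408 (adjusted p = 0.000925) with all libraries and -0.14 ± 0.0415 (adjusted p = 0.0273) after GC correction, but -0.13 ± 0.0453 (adjusted p = 0.0805) under both changes. Adcy5, the main isoform of medium spiny neurons, was at -0.16 ± 0.0442 (adjusted p = 0.00670) with all libraries, and at -0.03 (adjusted p = 0.694) under both changes. The cyclic AMP phosphodiesterase Pde4a was at -0.11 ± 0.0372 (adjusted p = 0.0279) with all libraries and passed in no other of the 4 fits.

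On the list of genes that neuronal activity and CREB induce, none was called higher. Vip, which rose in all 4 fits, is not on this list. Of 34 tested, 1 was called lower in each of the 4 fits, with medians of -0.11 (all libraries), -0.11 (without the L3 pair), -0.09 (GC correction) and -0.07 (both). Over all genes, 9.8%, 6.04%, 5.69% and 1.66% were called lower in these fits, in the same order. The gene called in 3 of the fits was Jun, an AP-1 transcription factor (chr4:95049034-95052222, minus strand). It held 30.5, 34.6 and 40.1 CPM (lowest, median, highest) in dosed cortices, against 38.02, 41.0 and 46.7 CPM in vehicle cortices. The groups overlapped slightly, and the log2 fold change was -0.25 ± 0.0710 (adjusted p = 0.00932) with all libraries, -0.20 ± 0.0716 (adjusted p = 0.0553) after GC correction and -0.25 ± 0.0752 (adjusted p = 0.0487) under both changes. Pcsk1, a prohormone convertase, was the call after GC correction alone (-0.28 ± 0.0768, adjusted p = 0.0154).

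The same list behaved differently in striatum, where 5 of its genes were called higher at 1.0 mg/kg, against 0.797% higher over all genes, and the median was 0.36. The effect in cortex was lower than that in striatum for 19 of the 34 genes with all libraries, and 1 gene was higher. Over all genes tested, 18.8% differed between the tissues in either direction, and 9.32% of all genes had a lower effect in cortex. Under both changes the effect in cortex was lower for 13 of the 34, where 1.77% of all genes differed and 0.795% of all genes were lower. Vgf, a secreted neuropeptide precursor that CREB induces, was at -0.20 in cortex (adjusted p = 0.0519) and 0.42 in striatum (adjusted p = 0.0214), a difference of -0.59 on the log2 scale. Its transcript is rich in GC, at 64.1%. Under both changes Vgf was at -0.05 in cortex (adjusted p = 0.669), and the fit within striatum was not corrected for GC. Egr3, an immediate early transcription factor, was at -0.29 in cortex (adjusted p = 0.0745) and 0.38 in striatum (adjusted p = 0.134), a difference of -0.66. Neither change within a tissue passed the test.

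The interneuron peptide genes Vip and Npy rose in each of the 4 fits. Of 14 GABA interneuron genes, 2 rose and 2 fell with all libraries, and 2 rose and none fell under both changes. The medians were 0.05 and 0.05. Over all genes, 20.7% were called with all libraries and 3.52% under both changes. Vip, vasoactive intestinal peptide, marks a class of disinhibitory interneurons (chr10:5639218-5647617, plus strand). It held 25.3, 26.8 and 28.8 CPM (lowest, median, highest) in dosed cortices, against 21.1, 22.03 and 23.9 CPM in vehicle cortices, with no overlap between the 10 and the 7. The log2 fold change was 0.29 ± 0.0522 (adjusted p = 0.000281) with all libraries and 0.29 ± 0.0557 (adjusted p = 0.00101) without the L3 pair. It was smaller after GC correction, at 0.19 ± 0.05003 (adjusted p = 0.0116), and 0.21 ± 0.0531 (adjusted p = 0.0264) under both changes.

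Npy, neuropeptide Y, which is made by a subset of somatostatin interneurons (chr6:49822710-49829507, plus strand), held 41.4, 43.3 and 47.2 CPM in dosed cortices, against 36.9, 38.4 and 40.7 CPM in vehicle cortices. Again the groups did not overlap. The log2 fold change was 0.18 ± 0.0429 (adjusted p = 0.00258) with all libraries and 0.19 ± 0.0419 (adjusted p = 0.0108) under both changes. The genes of the list that fell with all libraries were Reln, a secreted matrix protein of layer 1 and other interneurons (-0.20 ± 0.0544, adjusted p = 0.00794), and Slc32a1, the vesicular GABA transporter (-0.18 ± 0.0505, adjusted p = 0.00878). Neither passed under both changes.

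Of 22 cortical excitatory neuron genes, 3 fell and none rose with all libraries, and 1 fell under both changes. Over all genes, 9.8% fell with all libraries and 1.66% under both changes. Bcl11b, a transcription factor of subcerebral projection neurons, was at -0.22 ± 0.0561 (adjusted p = 0.00476) with all libraries and -0.20 ± 0.0606 (adjusted p = 0.0535) under both changes. Nxph4, a neurexin ligand of deep-layer neurons, was at -0.27 ± 0.0907 (adjusted p = 0.0271) with all libraries and did not pass after GC correction. The call under both changes was Etv1, a layer 5 transcription factor, at -0.13 (adjusted p = 0.0398). The median of the list was -0.05 with all libraries and -0.06 under both changes.

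Glutamate and GABA receptor genes gave 2 higher and 3 lower calls of 21 (23.8%) with all libraries and 1 lower call (4.76%) under both changes, shares near the 20.7% and 3.52% over all genes. Grin1, the obligate NMDA receptor subunit, held 383, 490 and 552 CPM (lowest, median, highest) in dosed cortices, against 535, 555 and 562 CPM in vehicle cortices. Its log2 fold change was -0.20 ± 0.0424 (adjusted p = 0.000946) with all libraries and -0.05 ± 0.0265 (adjusted p = 0.235) under both changes. The presynaptic glutamate receptor Grm2 (-0.16 ± 0.0431, adjusted p = 0.00759) and the GABA-B subunit Gabbr1 (-0.06 ± 0.0170, adjusted p = 0.0117) were lower, and the GABA-A subunit Gabra4 higher (0.11 ± 0.0334, adjusted p = 0.0182), with all libraries only or without the pair, and none passed after GC correction. Grm5, a group I metabotropic receptor, was the call under both changes, at -0.12 (adjusted p = 0.0460). Grin2b, an NMDA receptor subunit singled out after its values were seen, held 11.1 and 11.98 CPM in the L3 pair, against 55.4 to 78.8 CPM in the other dosed and 62.2 to 81.6 CPM in the vehicle cortices.

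Voltage-gated channel genes made up the list with the most calls in 1 direction among the neuronal lists. With all libraries 12 of 22 fell and none rose, with a median of -0.16, where 9.8% of all genes fell. Under both changes 2 fell and 1 rose, with a median of -0.06, where 3.52% of all genes were called. Kcnc1, a fast delayed rectifier of fast-spiking cells, held 134, 172 and 180 CPM in dosed and 183, 194 and 198 CPM in vehicle cortices, with no overlap, and its fold change was -0.23 ± 0.0425 (adjusted p = 0.000438) with all libraries and -0.09 ± 0.0278 (adjusted p = 0.0614) under both changes. Cacna1g, a T-type calcium channel, was called with all libraries and not under both changes (-0.27 ± 0.0588, adjusted p = 0.00124, and -0.10 ± 0.0367, adjusted p = 0.120). Cacna1e, an R-type calcium channel, was among the channels that fell under both changes, at -0.16 (adjusted p = 0.0274).

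Synaptic scaffold and adhesion genes followed a similar course, with 1 higher and 9 lower of 20 with all libraries, where 9.8% of all genes fell. Under both changes 1 was lower, where 3.52% of all genes were called. That gene was Shank1, a scaffold of the postsynaptic density (chr7:44310253-44360572, plus strand). It held 210, 361 and 385 CPM (lowest, median, highest) in dosed cortices, against 423, 438 and 468 CPM in vehicle cortices. The L3 pair was lowest at 220 CPM in F1 and 210 CPM in F4, but the other 8 dosed libraries, at 357 to 385 CPM, also lay below all 7 vehicle libraries. The fold change was -0.41 ± 0.0767 (adjusted p = 0.000376) with all libraries, -0.27 ± 0.0406 (adjusted p = 6.53e-05) without the pair, and -0.17 ± 0.0355 (adjusted p = 0.00760) under both changes. Its transcript is long, at 9826 bases. With length corrected as well as GC and the pair left out, Shank1 was at -0.12 ± 0.0328 and missed the threshold (adjusted p = 0.0522). Shank3, its paralogue, and Nrxn2, a presynaptic neurexin, were lower with all libraries (-0.28 ± 0.0608, adjusted p = 0.00142, and -0.18 ± 0.0369, adjusted p = 0.000713) and did not pass after GC correction. Snap25, a SNARE protein of vesicle release, was higher with all libraries (0.18 ± 0.0332, adjusted p = 0.000290) and did not pass after GC correction either (0.08, adjusted p = 0.0982).

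Cacng8, an auxiliary subunit of AMPA receptors (chr7:3390683-3415648, plus strand), had the smallest p of all genes with all libraries and was singled out after its values were seen. It held 20.9, 26.5 and 29.5 CPM (lowest, median, highest) in dosed cortices, against 30.7, 34.0 and 34.7 CPM in vehicle cortices, with no overlap. Its fold change was -0.36 ± 0.0439 (adjusted p = 3.01e-06) with all libraries and -0.18 ± 0.0341 (adjusted p = 0.00389) under both changes. Its transcript is rich in GC, at 65.1%.

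**Figure D4:**
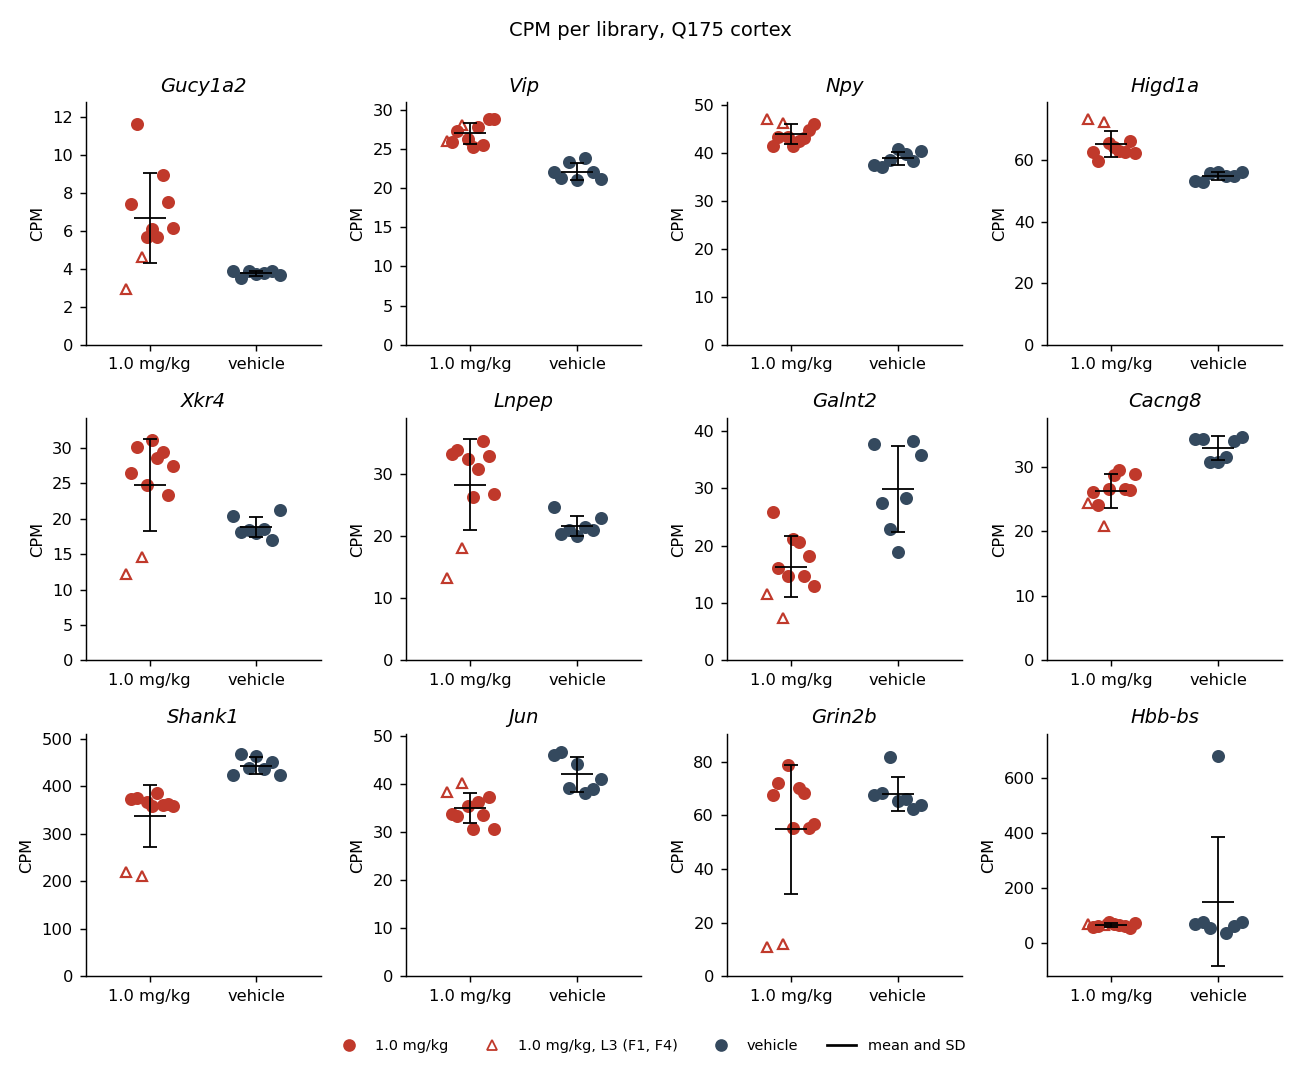
CPM of 12 genes in each cortex library, with the 10 libraries at 1.0 mg/kg on the left and the 7 vehicle libraries on the right of each panel; bars are the mean and SD and open triangles the dosed L3 libraries. Vip, Npy and Higd1a lie higher and Cacng8 and Shank1 lower at 1.0 mg/kg without overlap, the L3 pair falls away in Xkr4, Lnpep, Shank1 and Grin2b, and 1 vehicle library sets the mean of Hbb-bs.

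Mitochondrially encoded genes, which code for core subunits of the respiratory chain, were higher in the dosed group with all libraries. All 13 rose, with a median of 0.22, where 10.9% of all genes were higher. Without the L3 pair 8 rose (median 0.14), after GC correction 3 rose (median 0.11), and under both changes none did (median 0.06). mt-Co3, a subunit of complex IV, held 7310, 7996 and 10891 CPM (lowest, median, highest) in dosed cortices, against 6639, 7143 and 7752 CPM in vehicle cortices. The groups overlapped, and the fold change was 0.25 ± 0.0521 (adjusted p = 0.000877) with all libraries and 0.08 ± 0.0395 (adjusted p = 0.264) under both changes. mt-Co1 of complex IV and mt-Cytb of complex III were at 0.21 ± 0.0439 (adjusted p = 0.00118) and 0.25 ± 0.0546 (adjusted p = 0.00123) with all libraries. In the striatum none of the 13 was called and the median was -0.12. The cortex effect on mt-Co3 was higher than the striatal one by 0.36 with all libraries (adjusted p = 0.000223) and by 0.16 under both changes (adjusted p = 0.0308).

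Nuclear genes of the respiratory chain gave more higher than lower calls in 3 of the 4 fits and as many of each in the other. Of 24, 7 rose and none fell with all libraries (10.9% of all genes were higher), 2 rose and 2 fell without the L3 pair (6.12% higher), 9 rose after GC correction (6.31% higher), and 4 rose and 1 fell under both changes (1.86% higher). The medians were 0.06, 0.02, 0.10 and 0.03. Under both changes the genes that rose were Cox4i1 (0.15, adjusted p = 0.00129) and Cox6a1 (0.12, adjusted p = 0.0316) of complex IV, Ndufv1 of complex I (0.08, adjusted p = 0.0204) and Sdhb of complex II (0.08, adjusted p = 0.0395), and the gene that fell was Ndufb2 of complex I (-0.21, adjusted p = 0.0345). Ndufa4, a subunit of complex IV, was higher in every dosed library than the vehicle median, at 158, 171 and 210 CPM against 151, 153 and 158 CPM in vehicle cortices, with 0.20 ± 0.0386 (adjusted p = 0.000438) with all libraries and 0.06 (adjusted p = 0.347) under both changes. Ndufb9, a subunit of complex I singled out after its values were seen, was called in all 4 fits, with 0.17 ± 0.0335 (adjusted p = 0.000681) and 0.16 ± 0.0257 (adjusted p = 0.000464) in the first and the last.

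Higd1a, a hypoxia-inducible protein of the inner mitochondrial membrane that binds respiratory complexes (chr9:121848563-121858362, minus strand), was likewise singled out after its values were seen, as the gene of smallest p under both changes. It held 59.9, 63.7 and 73.4 CPM (lowest, median, highest) in dosed cortices, against 52.8, 54.9 and 56.2 CPM in vehicle cortices. Every dosed library was above every vehicle library. The fold change hardly moved between fits, at 0.25 ± 0.0350 (adjusted p = 1.71e-05), 0.20 ± 0.0305 (adjusted p = 7.85e-05), 0.27 ± 0.0358 (adjusted p = 3.10e-05) and 0.22 ± 0.0305 (adjusted p = 0.000175) with all libraries, without the L3 pair, after GC correction and under both changes.

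Cytosolic ribosomal protein genes gave 9 higher calls of 19 with all libraries, 2 without the L3 pair, 11 after GC correction and 2 under both changes. The medians were 0.08, 0.03, 0.11 and 0.07, and none was lower. Over all genes the shares called higher in these fits were 10.9%, 6.12%, 6.31% and 1.86%. Rpl4 and Rpl5 of the large subunit were at 0.11 ± 0.0250 (adjusted p = 0.00199) and 0.25 ± 0.0577 (adjusted p = 0.00257) with all libraries, and did not pass under both changes. The calls of the list there were Rpl8 (0.10, adjusted p = 0.0194) and Rpl19 (0.09, adjusted p = 0.0326). Outside the list, Rpl14 (0.23, adjusted p = 0.000362), Rpl39 (0.19, adjusted p = 0.00282), Rplp2 (0.17, adjusted p = 0.0110) and Rpl9 (0.12, adjusted p = 0.0143) rose in all 4 fits, with values given for both changes; they were singled out after their values were seen. These genes have many processed pseudogenes, and how shared reads were assigned is not given, so their values are uncertain. Eif4a3, a helicase of the exon junction complex singled out after its values were seen, was called in all 4 fits, with 0.16 ± 0.0247 (adjusted p = 0.000362) under both changes.

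Glial genes were called at shares on both sides of the 20.7% over all genes. Of 13 astrocyte genes, 1 rose and 1 fell (15.4%) with all libraries. The gene that rose was S100b, a calcium-binding protein, at 0.21 ± 0.0486 (adjusted p = 0.00245). Under both changes it missed the threshold (adjusted p = 0.0681), and Gja1, connexin 43, was the call, at -0.16 (adjusted p = 0.0487). Of 14 microglial genes 3 rose and 1 fell (28.6%) with all libraries, and none was called under both changes. Ctss, a lysosomal protease, held 118 CPM in dosed F1 and 111 CPM in dosed F4 of the L3 pair, against 72.8 to 78.6 CPM in vehicle cortices. Its fold change was 0.23 ± 0.0649 (adjusted p = 0.00967) with all libraries and 0.11 (adjusted p = 0.139) without the pair. P2ry12, a purinergic receptor of resting microglia, passed with all libraries alone (0.19 ± 0.0701, adjusted p = 0.0465).

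In the oligodendrocyte lineage, Cspg4, the NG2 proteoglycan of precursor cells, was lower in 3 fits, at -0.33 ± 0.0687 (adjusted p = 0.00103) with all libraries, and at -0.17 ± 0.0622 (adjusted p = 0.111) under both changes. The lineage factors Olig2 and Olig1 passed without the L3 pair alone (-0.33 ± 0.102, adjusted p = 0.0262, and -0.21 ± 0.0671, adjusted p = 0.0348), which with Cspg4 made 3 lower of 8 precursor genes there. Over all genes 6.04% were lower in that fit. Of 13 genes of mature oligodendrocytes 1 was called, Ugt8a, an enzyme of myelin galactolipid synthesis, after GC correction (-0.34 ± 0.109, adjusted p = 0.0381) and under both changes (-0.40 ± 0.117, adjusted p = 0.0476).

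Vascular, meningeal, choroid plexus and blood genes were lower or not called. Flt1, an endothelial VEGF receptor, was the call among 14 endothelial genes, with all libraries alone (-0.17 ± 0.0577, adjusted p = 0.0305). Of 10 genes of meninges and fibroblasts 2 fell with all libraries, among them the collagen Col1a1 (-0.36 ± 0.103, adjusted p = 0.0103), and none passed after GC correction; the list summed to 106 to 167 CPM in dosed and 119 to 162 CPM in vehicle cortices.

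The choroid plexus, a secretory epithelium of the ventricles, gave counts that varied between mice. Its 12 genes summed to 648 CPM in dosed F2 and 227 to 292 CPM in the other 9 dosed libraries, against 251 and 256 CPM in vehicle F3 and F4 and 412 to 795 CPM in the other 5 vehicle libraries. The median fold change of the list was -1.19 with all libraries and -1.15 under both changes, and 2 of 12 fell with all libraries. Clic6, a chloride channel, was at -0.87 ± 0.291 (adjusted p = 0.0280), and Prlr, the prolactin receptor, at -1.24 ± 0.441 (adjusted p = 0.0388). Mfrp, a frizzled-related membrane protein, showed the same split between libraries. It held 5.00 CPM in dosed F2 and 0.781 to 1.97 CPM in the other 9, against 1.07 to 7.49 CPM in vehicle cortices (-1.50 ± 0.509, adjusted p = 0.0305). None of these passed without the L3 pair, where the fold changes were -0.85 for Clic6, -1.14 for Prlr and -1.38 for Mfrp. The part of choroid plexus RNA in other results was not tested.

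The blood list turned on 1 vehicle mouse. All 5 of its tested genes fell with all libraries, with a median of -1.17, and none passed under both changes. Hbb-bs, a beta globin, held 53.9, 65.9 and 74.4 CPM (lowest, median, highest) in dosed cortices, against 34.6, 68.6 and 678 CPM in vehicle cortices. The 678 CPM came from vehicle F4, whose blood genes summed to 1446 CPM in cortex and 1211 CPM in striatum, against 75.2 to 170 CPM in the other vehicle cortices and 119 to 166 CPM in the dosed cortices. The fold change was -1.17 ± 0.333 (adjusted p = 0.0104) with that mouse and 0.0578 without it; Hba-a1, an alpha globin, was at -1.11 and 0.0135. Globin genes are near-identical copies, and their single values are uncertain. Alas2, the erythroid enzyme of heme synthesis, was at -1.50 ± 0.388 (adjusted p = 0.00520), with 20.9 CPM in the same mouse.

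Of the remaining lists, interferon response genes gave 1 call of 15, B2m, the light chain of MHC class I, at 0.26 ± 0.0730 (adjusted p = 0.0106) with all libraries. It held 153 and 138 CPM in the L3 pair and did not pass without them (0.09, adjusted p = 0.163). Of 15 chaperone genes, Dnaja1, an HSP40 co-chaperone, was higher (0.11 ± 0.0343, adjusted p = 0.0148) and Hspa1b, an inducible HSP70, lower (-0.23 ± 0.0839, adjusted p = 0.0485) with all libraries, and none passed after GC correction. Cholesterol synthesis genes gave 4 higher and 1 lower of 23 (21.7%, against 20.7% over all genes) with all libraries and none under both changes, with medians of 0.07 and 0.05. Idi1, an isomerase of the pathway, was at 0.22 ± 0.0622 (adjusted p = 0.0108), Sc5d, a desaturase, at 0.13 ± 0.0357 (adjusted p = 0.00803), and Srebf2, the transcription factor that drives the pathway, at -0.16 ± 0.0338 (adjusted p = 0.000901).

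Of 23 medium spiny neuron genes 2 fell with all libraries and none was called under both changes, and of 20 receptors for monoamines and other modulators 2 fell and none was called. None of the 6 ependymal, 8 hippocampal, 9 thalamic and 8 developmental transcription factor genes was called in any of the 4 fits.

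Several of the named genes of largest fold change were low in expression. Depp1, a FOXO-regulated autophagy gene, was at 0.81 ± 0.253 (adjusted p = 0.0189) with all libraries and 0.87 ± 0.269 (adjusted p = 0.0563) under both changes. It held 2.10 to 6.58 CPM in dosed and 1.08 to 2.98 CPM in vehicle cortices. Lsm7, an mRNA decay factor, was at 0.69 ± 0.233 (adjusted p = 0.0292) with all libraries and 0.51 (adjusted p = 0.160) without the L3 pair, and Adm, the vasodilator adrenomedullin, at 0.51 ± 0.167 (adjusted p = 0.0254) and 0.56 (adjusted p = 0.0345). Under both changes Adm was at 0.56 (adjusted p = 0.0637). Fbxo36, an F-box protein, was at 0.47 ± 0.129 (adjusted p = 0.00748) and Drc7, a component of motile cilia, at -0.99 ± 0.327 (adjusted p = 0.0267), and neither passed under both changes, at 0.43 (adjusted p = 0.0665) for Fbxo36 and -0.999 (adjusted p = 0.0946) for Drc7.

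Kif23, a kinesin of the central spindle, held 1.12, 1.34 and 2.03 CPM (lowest, median, highest) in dosed cortices, against 0.705, 0.977 and 1.22 CPM in vehicle cortices, and was called in all 4 fits (0.53 ± 0.126, adjusted p = 0.00275, with all libraries; 0.58 ± 0.130, adjusted p = 0.0112, under both changes). Sgo2a, a shugoshin that protects cohesion at centromeres, was at 0.45 ± 0.134 (adjusted p = 0.0130) with all libraries and 0.54 ± 0.137 (adjusted p = 0.00845) without the pair, and passed neither after GC correction (0.37, adjusted p = 0.0704) nor under both changes (0.47, adjusted p = 0.0500169). Gins2, of the replicative helicase, rested on the L3 pair, with 21.4 and 19.6 CPM there, 7.49 to 11.2 CPM in the other dosed and 6.93 to 8.76 CPM in the vehicle cortices. Its fold change was 0.49 ± 0.166 (adjusted p = 0.0305) with the pair and 0.09 (adjusted p = 0.653) without it.

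Sugct, a mitochondrial CoA transferase of glutarate metabolism, was called in all 4 fits, with 2.43, 2.90 and 4.51 CPM in dosed cortices, against 1.89, 2.06 and 2.55 CPM in vehicle cortices, and a fold change of 0.48 ± 0.105 (adjusted p = 0.00152) with all libraries and 0.47 ± 0.108 (adjusted p = 0.0134) under both changes. Its highest value, 4.51 CPM, was that of dosed M4.

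For Xkr4 and Lnpep the L3 pair lay opposite to the rest of the dosed group. Xkr4, a member of the phospholipid scramblase family XKR, held 12.2 and 14.6 CPM in the pair and 23.4 to 31.1 CPM in the other dosed cortices, against 17.1 to 21.2 CPM in vehicle cortices. Lnpep, an aminopeptidase that cleaves oxytocin and other peptides, held 13.2 and 17.997 CPM in the pair and 26.2 to 35.3 CPM in the others, against 20.1 to 24.7 CPM in vehicle cortices. The other 8 dosed libraries lay above all vehicle libraries for both genes. Without the pair the fold changes were 0.55 ± 0.0823 (adjusted p = 6.57e-05) for Xkr4 and 0.55 ± 0.0889 (adjusted p = 0.000154) for Lnpep, and with it 0.38 ± 0.119 (adjusted p = 0.0203) and 0.37 ± 0.123 (adjusted p = 0.0259). After GC correction neither passed with the pair (0.29 for each, adjusted p = 0.116 for each), and both passed without it (0.47 for each, adjusted p = 0.00108 for Xkr4 and 0.00155 for Lnpep).

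Galnt2, a Golgi enzyme that starts mucin-type O-glycosylation (chr8:124231391-124345724, plus strand), was lower in all 4 fits. It held 7.41, 15.4 and 25.8 CPM (lowest, median, highest) in dosed cortices, against 18.8, 28.3 and 38.2 CPM in vehicle cortices. The groups overlapped, and the fold change was -0.93 ± 0.186 (adjusted p = 0.000711) with all libraries and -0.75 ± 0.185 (adjusted p = 0.0204) under both changes. Scand1, a SCAN domain protein, was at -0.59 ± 0.140 (adjusted p = 0.00266) and -0.49 ± 0.122 (adjusted p = 0.0204). Inpp4a, a phosphoinositide phosphatase singled out after its values were seen, held 117, 133 and 137 CPM in dosed cortices, against 140, 145 and 149 CPM in vehicle cortices, with no overlap (-0.15 ± 0.0245, adjusted p = 0.000129, with all libraries; -0.11 ± 0.0172, adjusted p = 0.000362, under both changes).

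The 1.0 mg/kg cortices were then compared directly with those of the other doses. Against 0.32 mg/kg 5 of 17603 genes (0.0284%) were called by edgeR, where 2065 had an unadjusted p under 0.05, and 10 (0.0569%) and 8 (0.0455%) were called without the L3 pair and under both changes. The 5 are named although they fall outside the naming rule. Gm14303, Rpl37rt, Gm12918 and Gm17494 were higher and Thsd4, a matrix protein of microfibrils, lower at 1.0 mg/kg. Gm14303 held 0.0232, 10.02 and 22.9 CPM (lowest, median, highest) at 1.0 mg/kg and 0, 0.0729 and 0.752 CPM at 0.32 mg/kg. Vehicle cortices held 7.30, 15.5 and 24.0 CPM of it, so the values at 0.32 mg/kg lay below vehicle and those at 1.0 mg/kg did not lie above it. The other 3 are predicted or ribosomal protein genes that may share reads with copies. Thsd4 held 7.43, 8.19 and 9.35 CPM at 1.0 mg/kg and 8.27, 9.87 and 11.5 CPM at 0.32 mg/kg, with a fold change of -0.27 (adjusted p = 0.0299).

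Against 3.2 mg/kg 863 genes (4.9%) were called with all libraries, 476 higher and 387 lower at 1.0 mg/kg, and 24 (0.137%) without the L3 pair. Under both changes 9 (0.0512%) were called. Higd1a was among the 24 and the 9, at 0.13 (adjusted p = 0.0458) and 0.14 (adjusted p = 0.0454), and so was Inpp4a, at -0.08 in both (adjusted p = 0.0262 and 0.0454). The calls of each dose against vehicle share the 7 vehicle libraries and are given side by side only. At 0.32 mg/kg 1789 genes (10.2%) were called, 276 (1.57%) after GC correction, 2778 (15.8%) when the L3 pair was left out of the shared fit and 854 (4.86%) under both changes. At 3.2 mg/kg 0 (0%) were called by edgeR, where 1307 had an unadjusted p under 0.05. Leaving the pair out of the shared fit gave 1 call there (0.00569%), Cacng8, and none after GC correction as well.

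Single genes were read across the doses, which share the same vehicle mice. Gucy1a2 held 3.51 to 3.89 CPM on vehicle, 4.85 to 11.9 CPM at 0.32 mg/kg, 2.93 to 11.6 CPM at 1.0 mg/kg and 2.74 to 9.84 CPM at 3.2 mg/kg. WT cortices held 3.18 to 4.98 CPM, so the vehicle groups of both genotypes lay at a like level and all 3 doses reached above it. The fold change at 1.0 against 3.2 mg/kg was 0.41 (adjusted p = 0.160).

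Vip held 21.1 to 23.9 CPM on vehicle, 22.1 to 28.4 CPM at 0.32 mg/kg, 25.3 to 28.8 CPM at 1.0 mg/kg and 20.96 to 26.5 CPM at 3.2 mg/kg, and 31.0 to 39.4 CPM in WT cortices. It was higher at 1.0 than at 3.2 mg/kg by 0.23 (adjusted p = 0.0116; 0.0537 without the L3 pair). Against WT it was at -0.41 at 1.0 mg/kg and at -0.70 on vehicle, so all Q175 groups lay below the WT range. Npy held 36.9 to 40.7 CPM on vehicle, 39.1 to 47.6 CPM at 0.32 mg/kg, 41.4 to 47.2 CPM at 1.0 mg/kg and 36.3 to 45.4 CPM at 3.2 mg/kg, and 46.3 to 58.0 CPM in WT cortices. It was higher at 1.0 than at 3.2 mg/kg by 0.15 (adjusted p = 0.0301; 0.12 and 0.209 without the L3 pair). Cacng8 was lower at 1.0 than at 3.2 mg/kg, with a log2 fold change of -0.14 (adjusted p = 0.0456), and did not pass without the L3 pair (-0.10, adjusted p = 0.286). Against vehicle it was at -0.35 at 0.32 mg/kg and at -0.23 (adjusted p = 0.134) at 3.2 mg/kg, where it passed with the L3 pair left out of the shared fit (-0.22, adjusted p = 0.0348).

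**Figure D5:**
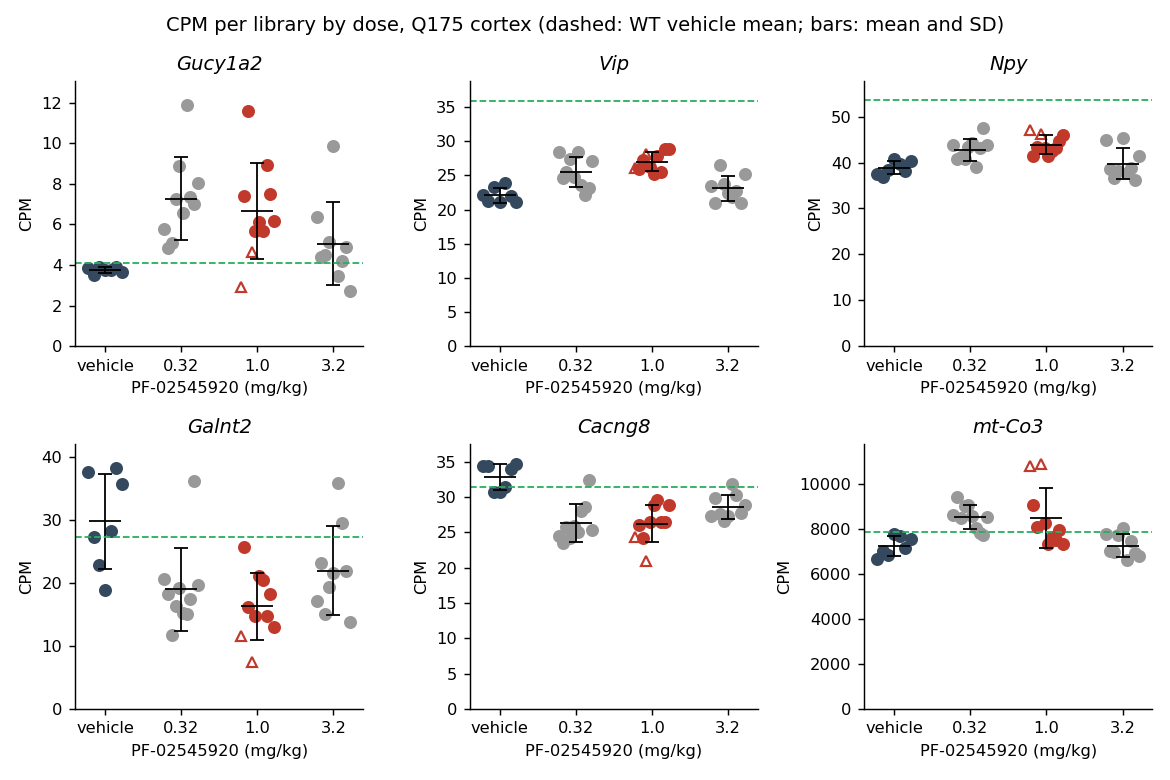
CPM of 6 genes in cortex libraries of Q175 mice on vehicle and at 0.32, 1.0 and 3.2 mg/kg, in that order; bars are the mean and SD, and the dashed line is the mean of WT vehicle cortices. Vip and Npy stay below the WT line at every dose, and at 1.0 mg/kg Gucy1a2 reaches 11.6 CPM while the vehicle mice lie between 3.51 and 3.89 CPM.

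Relative to WT cortices, 8772 genes (49.8%) were called at 1.0 mg/kg and 5356 (30.4%) on vehicle with all libraries, 2 comparisons that share the 9 WT libraries. Under both changes the counts lay closer together, at 7807 and 6524 of 17575 genes. The dosed group holds 10 libraries and the vehicle group 7, and the counts of calls are not matched for this. Median GC slopes were -0.0323 in dosed, 0.0415 in vehicle and 0.0643 in WT cortices. The part of group size and GC slope in these counts was not tested. The values that follow are those with all libraries. Of all genes 24.6% were lower than in WT at 1.0 mg/kg and 16.4% on vehicle. Of the 34 activity genes 32 were lower than in WT at 1.0 mg/kg (median -0.60) and 28 on vehicle (median -0.58). Of the 23 medium spiny neuron genes 23 were lower at 1.0 mg/kg (median -0.76) and 21 on vehicle (median -0.83). Of the 14 GABA interneuron genes 13 were lower at 1.0 mg/kg (median -0.24) and 12 on vehicle (median -0.29).

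The difference in effect between females and males passed for 0 genes (0%) by edgeR with all libraries, where 2105 genes had an unadjusted p under 0.05, and for none in the other 3 fits. Only 2 of the vehicle mice were male. In females 3619 genes (20.6%) were called with all libraries, 228 (1.3%) without the L3 pair, both of which are female, and 22 (0.125%) under both changes. In males 0 were called with all libraries, and 19 (0.108%) were when the pair was left out of the shared fit, but 1 (0.00569%), Eif4a3, when GC was corrected as well.

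Between the tissues, the effect in cortex differed from that in striatum for 3388 of 18014 genes (18.8%) with all libraries, with the mouse as a block. It differed for 1268 (7.05%) without the L3 pair, 1350 (7.49%) after GC correction and 319 (1.77%) under both changes. Within the striatum 186 of 17315 genes (1.07%) were called, 138 higher and 48 lower. Higd1a differed between the tissues in each of the first and the last of these fits, by 0.23 (adjusted p = 0.000936) and 0.18 (adjusted p = 0.00679). Galnt2 differed by -1.12 (adjusted p = 0.00820) with all libraries and by -0.78 (adjusted p = 0.151) under both changes.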

How the data were processed

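Cortex RNA of Q175 mice was sequenced, 1 library per mouse. For each of 38561 Ensembl gene IDs and each library, the authors deposited an FPKM value and an estimated count, not always whole. The submitters' processing notes name CASAVA 1.8.2. How reads were aligned and counted, on which build, whether by strand, and how shared reads were assigned is not given in the sources used here. Counts were rounded; 81.5% were already whole (tolerance 1e-06). GENCODE M21 (GRCm38), possibly another build than that of the counts, gave symbols, coordinates, GC content and length for 36639 IDs with 99.68% of the counts.

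The main test was the quasi-likelihood F test of edgeR 4.0.16 in R 4.3.3, with TMM factors, its expression filter, 1 fit over all 45 cortex libraries, and arm (5 levels) and sex as terms. A gene was called at a Benjamini-Hochberg adjusted p under 0.05 over all genes tested, and adjusted p-values of genes come from this test throughout. Fold changes are log2, 1.0 mg/kg over vehicle. Their standard error (SE) is the absolute fold change divided by the square root of the F statistic. CPM values of single genes are scaled by TMM. Sums of CPM over a list use the total count of each library, without TMM. GC correction used offsets from a natural spline of each library's log2 CPM deviation on the GC content of the longest transcript, with log2 length added where length was corrected. The tissue difference used all 90 libraries with the mouse as a block. Library measures were compared by exact permutation tests in SciPy 1.17.1 (Python 3.11.15). DESeq2 1.42.0 and limma 3.58.1 (voom, or log2 of FPKM plus 0.1 or 1) were alternatives. On simulated data with 100 genes changed by 0.5 and 100 by 1 on the log2 scale, the test over 17603 genes recovered 96% and 98%, with 7 false calls. The simulated counts carried no trend with GC content or transcript length. These rates therefore do not cover the trends seen in the libraries.

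Replicates are separate mice. In all 136 pairs of libraries, counts differed by more than sampling noise (chi-square per degree of freedom at least 3.89), and sex-linked transcripts fitted the labelled sex in all 17. Depth was 37.2 M to 45.8 M counts over the cortex libraries.

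The 27 lists, the members and the naming rule were chosen with earlier results of these data known. The rule names Htt, Pde10a, in each of 3 fits the called genes of largest fold change (8 in each direction) among those with mean log2 CPM of at least 0, and up to 4 members of each list with the smallest p. Of 124 genes so named, 58 are not described. Some genes counted in the lists are not reported here by name. Lists are described by counts and medians without a test. Promoter sequences come from RefSeq (GRCm38.p6).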

Additional observations from a re-analysis of the deposited data

Results flagged for a closer look

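Over 154 groups of 1 gene in the dosed or the vehicle cortices, 11 had a highest library far from the others, where chance gives about 1 in 20. The genes were not a random draw, and several of these groups share the same mouse. No conclusion is drawn from the count. Vehicle F4 was highest for the blood genes Alas2 (20.9 CPM), Hbb-bs (678 CPM) and Hba-a1 (210 CPM). Dosed F2 was highest for the choroid plexus genes Clic6 (7.49 CPM) and Prlr (6.04 CPM) and for Mfrp (5.00 CPM). Vehicle M1 was highest for Ndufa4 (158 CPM) and Idi1 (50.1 CPM), vehicle F3 for Grin2b (81.6 CPM), dosed M1 for Sgo2a (2.66 CPM) and dosed M4 for Sugct (4.51 CPM).

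For 36 of the described genes the effect of 1.0 mg/kg differed between cortex and striatum with all libraries, by edgeR with the mouse as a block; values are cortex minus striatum in log2 units. The effect in cortex was lower for the activity genes Egr3 (-0.66, adjusted p = 0.00336), Vgf (-0.59, adjusted p = 0.000466) and Jun (-0.25, adjusted p = 0.0416). It was lower for the synaptic genes Shank1 (-0.54), Shank3 (-0.38), Nrxn2 (-0.35), Grin1 (-0.32), Slc32a1 (-0.32) and Cacng8 (-0.50), the channel Kcnc1 (-0.25), and the signalling genes Adcy3 (-0.22) and Pde4a (-0.20). It was also lower for Htt (-0.21), Bcl11b (-0.24), Cspg4 (-0.31), Srebf2 (-0.28), Galnt2 (-1.12), Scand1 (-0.79), Clic6 (-0.81) and Mfrp (-1.49). All values in this paragraph include the L3 pair. For Htt, the fold change within cortex was -0.12 with the pair and 0.02 without it, and neither passed the test. The effect in cortex was higher for the respiratory genes mt-Co3 (0.36), mt-Cytb (0.36), mt-Co1 (0.29), Ndufa4 (0.26), Higd1a (0.23) and Ndufb9 (0.15), and for the ribosomal genes Rpl5 (0.27) and Rpl4 (0.15). It was higher as well for Snap25 (0.27), Gabra4 (0.20), P2ry12 (0.26), Ctss (0.19), Dnaja1 (0.18), Idi1 (0.20), Kif23 (0.44) and Sugct (0.41). The striatal libraries of these groups had GC slopes of opposite order to those of the cortex, and the part of this in the differences was not tested.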

How the results depend on the processing

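The 3649 genes called with all libraries became 2138 without the L3 pair, 2111 after GC correction, 619 with both, 788 after GC and length correction, 1799 with only the groups compared in the fit and 1943 with lanes L5 to L8 in both arms. Alternatives chosen after seeing the data gave 306 (GC and length correction without the pair), 1181 (only the groups compared, without the pair) and 1742 (limma on FPKM, without the pair). A lane term, other size factors, DESeq2, voom, FPKM with all libraries and no filter left the count within 1.5 times. GC and length correction took the 2138 to 306 and the 2111 to 788. Leaving out 1 library at a time gave 2569 to 3940 with all libraries, 1346 to 2131 without the pair (1346 without vehicle F2) and 1038 to 2734 after GC correction (1038 without dosed F4, 1116 without dosed F1, 1343 without vehicle F2, 1386 without vehicle F4). The cause was not tested.

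The replicate numbers do not pair the mice: over 7 same-numbered pairs the correlation of deviations ran from -0.202 to 0.0637, and no library was closest to its own number. With the replicate block 3213 genes were called, 1616 without the pair and 1697 after GC correction.

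Against 0.32 mg/kg the count of 5 became 10 without the pair and 8 with GC correction as well. Against 3.2 mg/kg the 863 became 24, 9 and, with no filter, 386. The sex difference gave 2 genes with no filter, Gm13340 and Rps25-ps1, and 0 to 0 leaving out either vehicle male. The tissue difference of 3388 became 1268 without the pair, 1350 after GC correction and 319 with both. The difference in mitochondrial share became 0.601 percentage points without the pair.

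Of 63 described genes called with all libraries, 21 lost the call when at least 1 library was left out: Adm, Alas2, Clic6, Col1a1, Depp1, Dnaja1, Drc7, Flt1, Gabra4, Gins2, Hba-a1, Hbb-bs, Hspa1b, Lnpep, Lsm7, Mfrp, Nxph4, P2ry12, Pde4a, Prlr and Xkr4. Among these 63, none of the 13 called in all 4 fits did. Those 13 were picked by fits to the same libraries, so this is not separate support for them. Some genes named above were also called in all 4 fits but are not among the 63, such as Rpl14, Rpl39, Rplp2, Rpl9 and Cacna1e. This count does not cover them. Signs turned for Htt (0.0163 without the pair, 0.0254 with both changes, 0.0142 with GC and length correction, 0.0277 in lanes L5 to L8, and 0.0654, 0.0121, 0.0159 and 0.0197 in settings added later), Adcy5 (0.0260 and 0.00602 with GC and length correction), Pde4a (0.00219), Gabbr1 (0.0244), Nrxn2 (0.0377 and 0.0254) and B2m (-0.0233) with the same correction, Reln (0.11, 0.11 and 0.0148 by FPKM), Dnaja1 (-0.0159 with both changes), Grin2b (0.0128 with only the groups compared, without the pair), and Hbb-bs and Hba-a1. Leaving out 1 library gave -1.34 to 0.0578 for Hbb-bs and -1.27 to 0.0135 for Hba-a1, each with the lowest without vehicle F5 and the highest without vehicle F4.

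GC correction moved single genes by more than 0.1 on the log2 scale, as for Cacng8 (-0.36 with all libraries, -0.22 after it) and Scand1 (-0.69 without the pair, -0.49 with both changes). Between the groups of 10 and 7 mice, lanes were not balanced, and L1 and L3 hold dosed libraries and no vehicle library.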
